A study of Mus musculus with 8 samples.

Results

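The 37 genes described here are the enzymes, carriers and regulators of glycolysis and a set of genes that hypoxia-inducible factors (HIF) are known to activate. They were found by gene symbol in a table of 48440 genes: 2 glucose carriers, 9 genes of upper glycolysis, 7 of lower glycolysis, 7 that regulate the pathway or handle pyruvate and lactate, and 12 HIF targets outside glycolysis. All 37 passed the filter on low counts, which kept 17739 genes. The libraries hold polyadenylated RNA of embryonic stem cells from 129/Ola mice, with 2 libraries in each of 4 groups: β-catenin knock-out cells with CHIR99021, knock-out cells with DMSO, parental cells (CTNNB1+/+) with CHIR99021 and parental cells with DMSO. CHIR99021, an inhibitor of the kinase GSK3, was given at 3 μM and its vehicle DMSO at 0.3 μl/ml, each for 72 hours. All cells grew with serum and without feeders on gelatin, and the labels name no treatment with low oxygen. The knock-out is a single line here, so loss of β-catenin and any other difference between the lines cannot be told apart. The labels do not say whether the 2 libraries of a group are separate cultures, and the spread behind the p-values may therefore be technical.

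Glycolysis splits glucose into pyruvate. Carriers of the SLC2A family bring glucose in, hexokinase traps it, phosphofructokinase commits it, and the lower steps, from GAPDH to pyruvate kinase, yield ATP. Lactate dehydrogenase then converts pyruvate to lactate, while the PDK kinases keep pyruvate from the tricarboxylic acid cycle by switching off pyruvate dehydrogenase. When oxygen falls, HIF α subunits escape hydroxylation by EGLN enzymes and destruction through VHL, pair with ARNT and activate most of these genes together with others such as Bnip3, Ndrg1, Ddit4 and Vegfa. Pluripotent stem cells are known for a high rate of glycolysis also when oxygen is plentiful. GSK3 marks β-catenin for destruction, and its inhibition stabilises β-catenin but also touches other substrates of the kinase.

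Library totals ran from 23650572 to 27680649 estimated counts, and levels are given as CPM, counts relative to the scaled library total. Ctnnb1, which encodes β-catenin, had 8.7 and 9.42 CPM in knock-out cells with CHIR99021 and 7.98 and 10.7 CPM in knock-out cells with DMSO. It had 813 and 843 CPM in parental cells with CHIR99021 and 887 and 906 CPM in parental cells with DMSO, so every library fits its genotype label. That gene does not bear on the treatment label. The 8 embryonic stem cell markers were all detected, with summed levels of 5154 to 5195 CPM in knock-out cells with CHIR99021, against 5419 to 5622 CPM with DMSO, and 5279 to 5417 CPM in parental cells with CHIR99021, against 5815 to 5828 CPM with DMSO. With CHIR99021, 2 of the 8 were called lower in knock-out cells and 6 in parental cells, against 4.18% and 10.3% of all genes tested. The 8 mesoderm markers summed to 13.3 to 15.2 CPM in parental cells with CHIR99021 and to 3.01 to 4.17 CPM in the other groups. Of these 8, 5 were tested, and 1 was called higher and 1 lower in parental cells, against 9.1% and 10.3% of all genes. The part of these shifts in the results below was not tested. Calls rest on edgeR's quasi-likelihood test with Benjamini-Hochberg adjustment over all 17739 genes at 0.05, and log2 fold changes are given with their standard error (SE). In RNA from whole cultures, fewer cells of a type and less RNA per cell cannot be told apart.

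HIF binds the letters ACGTG or GCGTG, and promoters of 5 genes whose responses are described below show how often these letters lie near the start. Each line gives 250 bases before and 50 after the start in the direction of the gene, from RefSeq on GRCm38.p6, and the capitals mark every ACGTG or GCGTG on either strand, read on the other strand as CACGT or CACGC.
Slc2a1 (chr4:119108495-119108794, plus strand): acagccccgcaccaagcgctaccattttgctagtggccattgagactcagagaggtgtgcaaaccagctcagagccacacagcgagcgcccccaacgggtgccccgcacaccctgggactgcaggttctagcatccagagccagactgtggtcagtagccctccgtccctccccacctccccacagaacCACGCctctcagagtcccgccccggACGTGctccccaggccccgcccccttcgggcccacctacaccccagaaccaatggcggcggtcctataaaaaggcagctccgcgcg
Pdk1 (chr2:71872974-71873273, plus strand): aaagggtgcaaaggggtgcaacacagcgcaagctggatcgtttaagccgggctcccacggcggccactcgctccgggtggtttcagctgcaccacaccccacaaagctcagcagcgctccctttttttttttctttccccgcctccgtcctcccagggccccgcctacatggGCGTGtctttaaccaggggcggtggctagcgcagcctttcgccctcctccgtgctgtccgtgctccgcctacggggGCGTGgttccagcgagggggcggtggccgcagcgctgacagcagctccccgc
Bnip3 (chr7:138909457-138909756, minus strand): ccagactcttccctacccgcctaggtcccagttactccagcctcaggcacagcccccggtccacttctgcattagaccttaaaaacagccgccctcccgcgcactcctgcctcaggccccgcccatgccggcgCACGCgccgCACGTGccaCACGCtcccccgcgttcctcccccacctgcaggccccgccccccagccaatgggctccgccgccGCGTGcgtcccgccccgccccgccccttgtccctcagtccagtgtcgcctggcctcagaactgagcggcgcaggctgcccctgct
Ddit4 (chr10:59951721-59952020, minus strand): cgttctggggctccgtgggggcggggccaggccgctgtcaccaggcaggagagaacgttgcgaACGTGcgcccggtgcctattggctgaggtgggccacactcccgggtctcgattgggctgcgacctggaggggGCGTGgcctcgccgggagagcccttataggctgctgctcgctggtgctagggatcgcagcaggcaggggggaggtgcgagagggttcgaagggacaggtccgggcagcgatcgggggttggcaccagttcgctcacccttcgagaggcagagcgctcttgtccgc
Ldhb (chr6:142507908-142508207, minus strand): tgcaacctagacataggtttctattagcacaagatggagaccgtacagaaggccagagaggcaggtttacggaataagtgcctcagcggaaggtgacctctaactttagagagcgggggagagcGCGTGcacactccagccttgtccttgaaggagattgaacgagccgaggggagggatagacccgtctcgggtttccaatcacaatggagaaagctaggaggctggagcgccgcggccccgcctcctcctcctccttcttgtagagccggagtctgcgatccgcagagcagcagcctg
The Bnip3 window holds 4 separate runs of these letters, and 1 of them is CACGTG, the palindrome that MYC and its partner MAX also bind. Slc2a1, Pdk1 and Ddit4 hold 2 each and Ldhb holds 1. Pdk1 has a second window in the table, at chr2:71874654-71874953, with 0 matches. Of the 37 genes 34 have a window in the table, and 31 of them hold the letters in at least 1 window. The letters occur in 42 of the 51 windows of these genes (82.4%), against 43.8% of all 32851 windows in the table. Some of the 51 are overlapping windows of the same gene, and the windows compared were not matched for base content. CACGTG lies in 5 of the 51 windows and in 7.15% of all windows. A match describes the sequence and is not a measured binding site.

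With CHIR99021 some genes of each kind were higher and others lower, most by small amounts. Of the 12 HIF targets, 1 was higher and 3 lower in knock-out cells and 2 were higher and 5 lower in parental cells. Of the 25 glycolytic genes, 2 were higher and 4 lower in knock-out cells and 5 were higher and 5 lower in parental cells. In knock-out cells 10 of the 37 genes passed the test, 3 higher and 7 lower, against 7.06% of all genes tested (2.88% higher and 4.18% lower). In parental cells 17 passed, 7 higher and 10 lower, against 19.4% of all genes (9.1% higher and 10.3% lower). That is 27.0% of the 37 genes in knock-out cells and 45.9% in parental cells. Of genes with at least 5 CPM in 2 libraries a larger share is called: 13 of 36 in knock-out cells and 19 of 36 in parental cells passed there, against 13.9% and 29.3% of all such genes. The median log2 fold change of the 37 genes was -0.077 in knock-out cells and -0.034 in parental cells, against -0.0028 and 0.004 over all genes. The median absolute log2 fold change was 0.159 in knock-out cells and 0.171 in parental cells, against 0.139 and 0.176 over all genes.

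**Figure D1:**
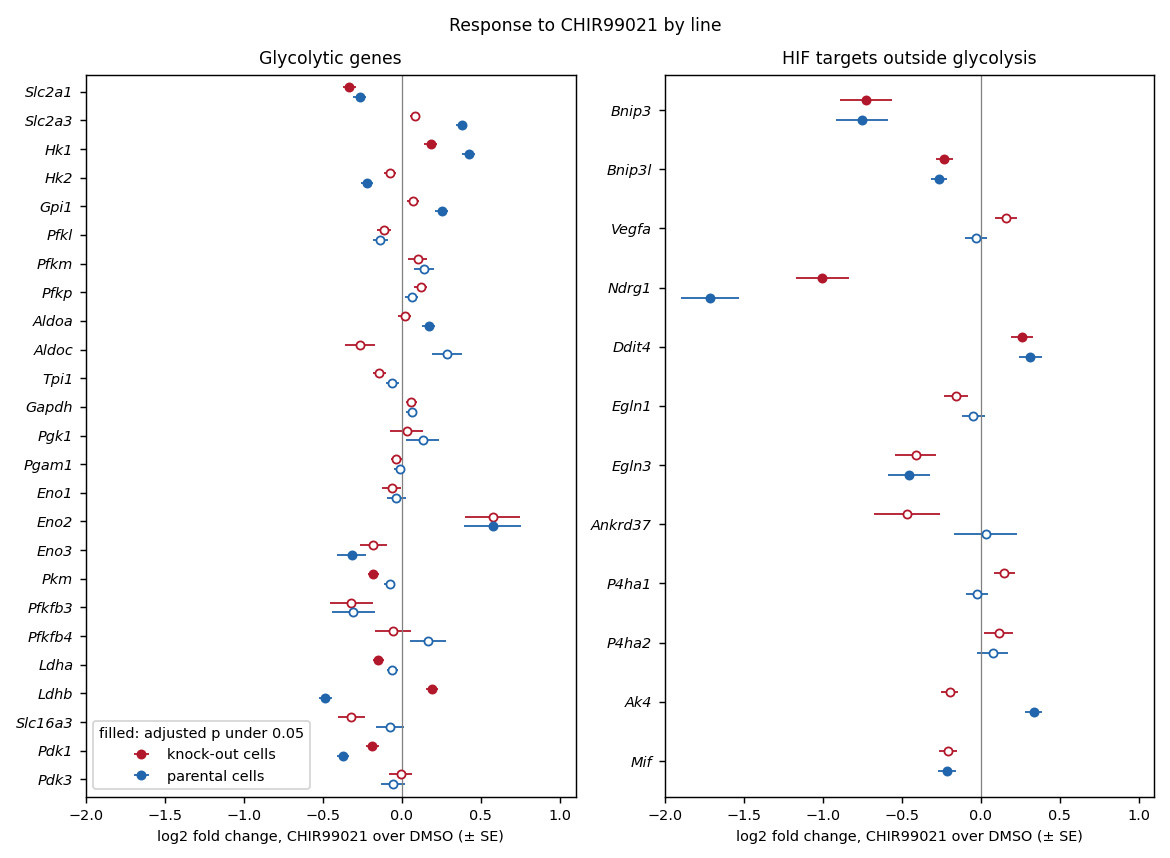
Log2 fold change (x axis) with CHIR99021 over DMSO of the 37 genes, glycolytic genes and HIF targets in separate panels, with knock-out cells above parental cells for each gene; bars are 1 SE of the fit and filled points have an adjusted p under 0.05. Ndrg1 lies farthest from 0 in both lines, and Ldhb lies on opposite sides of 0 in the 2 lines.

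The 2 lines had 8 called genes in common, 7 of them in the same direction. Slc2a1, Pdk1, Bnip3, Bnip3l and Ndrg1 were lower with CHIR99021 and Hk1 and Ddit4 higher, while Ldhb was higher in knock-out cells and lower in parental cells. Another 9 genes passed in parental cells alone, 2 in knock-out cells alone and 18 in neither. The log2 fold changes of the 2 lines, which share no library, had a Pearson r of 0.77 over the 37 genes and of 0.64 over 36 without Ndrg1. It was 0.08 over all genes tested and 0.3 over the 12148 genes with a mean of at least 2.47 CPM, the lowest mean of the 37. Most of the 37 lie well above that mean, so neither set is matched to them in level. Genes are not independent replicates, and these correlations describe the libraries. The calls lean on single libraries, as do those over all genes. Fewer of the 37 genes passed in knock-out cells whichever knock-out library was left out, and the share of all genes called fell as well. The same held in parental cells whichever parental library was left out.

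Ndrg1, a stress-induced gene whose product takes part in differentiation and membrane traffic, had the largest change of the 37 genes in both lines. It had 2.49 and 3.24 CPM in knock-out cells with CHIR99021, against 5.62 and 5.84 CPM in knock-out cells with DMSO. In parental cells it had 1.61 and 2.01 CPM with CHIR99021, against 6.27 and 5.6 CPM with DMSO. All libraries with CHIR99021 lay below all libraries with DMSO. The log2 fold change was -1.0 (SE 0.17, adjusted p = 0.00655) in knock-out cells and -1.72 (SE 0.18, adjusted p = 5.93e-05) in parental cells, the only calls among the 37 genes of at least 1 on that scale. The difference between the 2 responses, 0.71 (SE 0.25), did not pass the test (adjusted p = 0.132). The call in knock-out cells was lost without CHIR99021 replicate 1 (adjusted p = 0.0699), and DESeq2 gave no adjusted p for Ndrg1 in that comparison. Ndrg1 lies on chromosome 15 at 66929318 to 66969640, minus strand (GRCm38, as are the other gene positions).

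Bnip3 and Bnip3l, paralogs that target mitochondria for removal by autophagy, were lower with CHIR99021 in both lines. Bnip3 had 5.47 and 5.44 CPM in knock-out cells with CHIR99021, against 7.98 and 10.1 CPM with DMSO, and 6.59 and 4.73 CPM in parental cells with CHIR99021, against 8.8 and 10.3 CPM with DMSO. Its log2 fold change was -0.72 (SE 0.16, adjusted p = 0.0259) in knock-out cells and -0.75 (SE 0.17, adjusted p = 0.0088) in parental cells. Neither pair of groups overlapped, and the 2 responses were close in size. Bnip3l had 169 and 180 CPM in knock-out cells with CHIR99021, against 198 and 211 CPM with DMSO, and 183 and 195 CPM in parental cells with CHIR99021, against 233 and 221 CPM with DMSO. It changed by -0.23 (SE 0.05, adjusted p = 0.026) on the log2 scale in knock-out cells and -0.26 (SE 0.05, adjusted p = 0.00456) in parental cells. The Bnip3 call was lost without either knock-out CHIR99021 library or without knock-out DMSO replicate 2 (adjusted p 0.118 to 0.143), and in parental cells without CHIR99021 replicate 2 or DMSO replicate 2 (adjusted p = 0.0703 and 0.0688). The Bnip3l call was lost without any 1 of the 4 knock-out libraries (adjusted p 0.0566 to 0.181) and in parental cells without CHIR99021 replicate 1 (adjusted p = 0.0604).

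Pdk1, the kinase that switches off pyruvate dehydrogenase, and Slc2a1, the widely expressed glucose carrier GLUT1, also fell in both lines. Pdk1 had 135 and 132 CPM in knock-out cells with CHIR99021, against 149 and 155 CPM with DMSO, and 126 and 125 CPM in parental cells with CHIR99021, against 165 and 161 CPM with DMSO. The log2 fold change was -0.19 (SE 0.04, adjusted p = 0.0206) in knock-out cells and -0.37 (SE 0.04, adjusted p = 7.07e-05) in parental cells. Slc2a1 had 263 and 274 CPM in knock-out cells with CHIR99021, against 338 and 338 CPM with DMSO, and 264 and 253 CPM in parental cells with CHIR99021, against 305 and 317 CPM with DMSO. Its log2 fold change was -0.33 (SE 0.04, adjusted p = 0.00116) in knock-out cells and -0.27 (SE 0.04, adjusted p = 0.000761) in parental cells. Slc2a1 was the only 1 of the 10 genes called in knock-out cells whose call held in each of 16 alternatives. The Pdk1 call in knock-out cells was lost without either CHIR99021 library or without DMSO replicate 2 (adjusted p 0.0808 to 0.158).

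Ddit4, an inhibitor of the growth kinase mTORC1 that stress induces, went the other way from these HIF targets. It had 37.6 and 38.2 CPM in knock-out cells with CHIR99021, against 30 and 33.3 CPM with DMSO, and 33.9 and 30.5 CPM in parental cells with CHIR99021, against 25.2 and 26.6 CPM with DMSO. Levels with CHIR99021 lay above those with DMSO within each line, and knock-out levels lay above parental levels within CHIR99021 and within DMSO. The log2 fold change was 0.31 (SE 0.07, adjusted p = 0.0117) in parental cells. In knock-out cells it was 0.26 (SE 0.07), with an adjusted p of 0.05 that lay just under the threshold before rounding. DESeq2 did not call the knock-out response (adjusted p = 0.109). That call was also lost without 5 of the 8 libraries, both knock-out CHIR99021 libraries, knock-out DMSO replicate 1 and both parental DMSO libraries (adjusted p 0.0697 to 0.314), and the parental call without CHIR99021 replicate 1 or DMSO replicate 1 (adjusted p = 0.104 and 0.102).

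**Figure D2:**
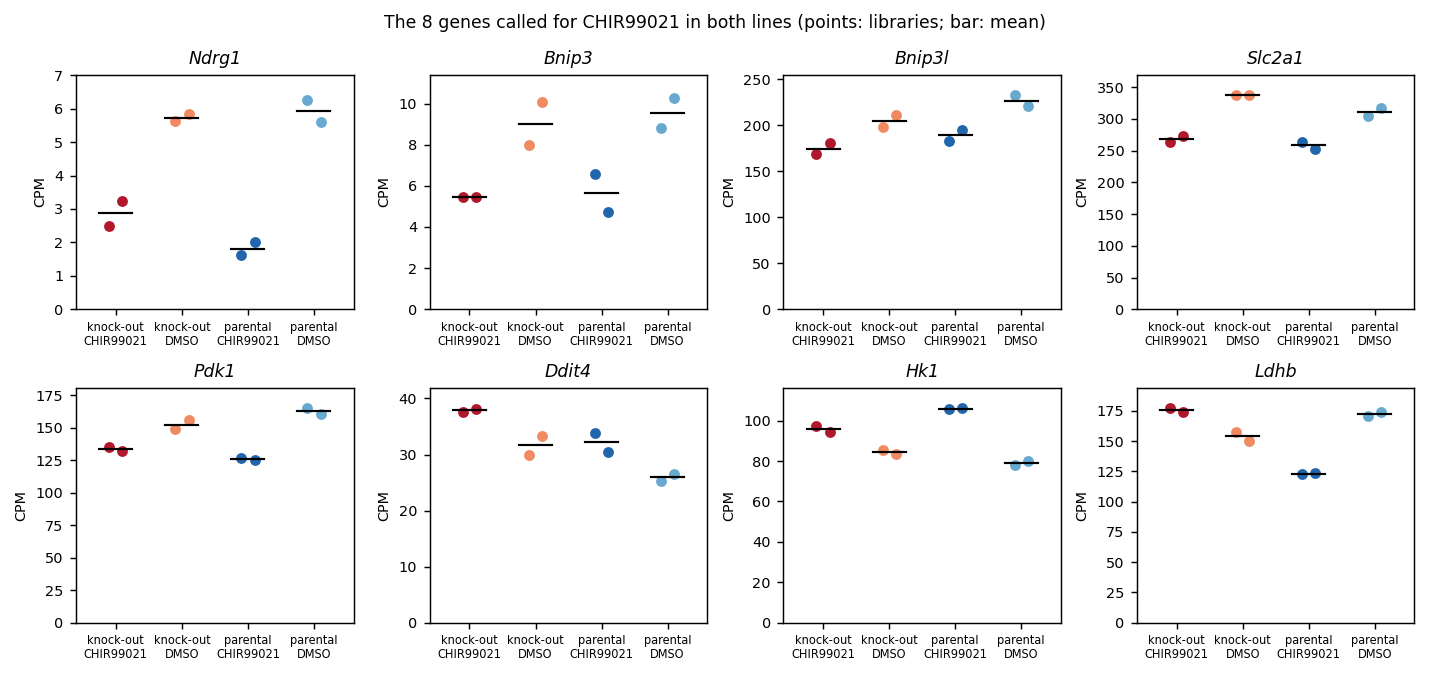
CPM (y axis) in each library of the 8 genes that passed the test in both lines; points are libraries, bars are group means, and the groups are knock-out with CHIR99021, knock-out with DMSO, parental with CHIR99021 and parental with DMSO. Libraries with CHIR99021 lie below those with DMSO for Ndrg1, Bnip3, Bnip3l, Slc2a1 and Pdk1 within each line, above them for Ddit4 and Hk1, and above them in knock-out but below them in parental cells for Ldhb.

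Of the remaining HIF targets, Egln3 and Mif passed in parental cells and not in knock-out cells, and their values in the 2 lines were close. Egln3, an oxygen-sensing prolyl hydroxylase that HIF itself induces, had 5.36 and 5.83 CPM in knock-out cells with CHIR99021, against 7.14 and 7.74 CPM with DMSO, and 5.86 and 5.23 CPM in parental cells with CHIR99021, against 6.91 and 8.3 CPM with DMSO. Its log2 fold change of -0.45 (SE 0.13) passed in parental cells (adjusted p = 0.0328), and that of -0.41 (SE 0.13) in knock-out cells did not (adjusted p = 0.0843). The parental call was lost under DESeq2 (adjusted p = 0.183), without CHIR99021 replicate 1 or 2 (adjusted p = 0.0682 and 0.166) and without DMSO replicate 2 (adjusted p = 0.228). Mif, a secreted cytokine, had a log2 fold change of -0.21 (SE 0.06) in each line, called in parental cells (adjusted p = 0.0259) and not in knock-out cells (adjusted p = 0.0555). The 2 responses differed by 0.04 (adjusted p = 0.926) for Egln3 and by 0.00 (adjusted p = 0.989) for Mif. For Mif, without parental CHIR99021 replicate 2 the parental call was lost (adjusted p = 0.189), as it was without DMSO replicate 1 or 2 (adjusted p = 0.0646 and 0.141). Vegfa, the main angiogenic growth factor, had 69.1 and 61.6 CPM in knock-out cells with CHIR99021, 56.5 and 60.6 CPM in knock-out cells with DMSO, 65 and 58.7 CPM in parental cells with CHIR99021 and 62 and 64.3 CPM in parental cells with DMSO. It passed no test (adjusted p of 0.192 or more). Ankrd37, Egln1, the main oxygen-sensing hydroxylase, and P4ha1 and P4ha2, subunits of the enzyme that hydroxylates collagen, passed in neither line, with log2 fold changes of -0.46 (Ankrd37 in knock-out cells) to 0.15.

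Of the glucose carriers, Slc2a3 (GLUT3, which has a high affinity for glucose) rose in parental cells while Slc2a1 fell. Slc2a3 had 919 and 903 CPM in knock-out cells with CHIR99021, against 856 and 864 CPM with DMSO, and 1189 and 1189 CPM in parental cells with CHIR99021, against 900 and 929 CPM with DMSO. The log2 fold change was 0.08 (SE 0.03, adjusted p = 0.163) in knock-out cells and 0.38 (SE 0.03, adjusted p = 1.3e-05) in parental cells. The parental libraries with CHIR99021 stood above the other 6 libraries, which lay between 856 and 929 CPM.

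The 2 hexokinases moved in opposite directions in parental cells. Hk1 had 97.6 and 94.3 CPM in knock-out cells with CHIR99021, against 85.4 and 83.6 CPM with DMSO, and 106 and 106 CPM in parental cells with CHIR99021, against 77.9 and 80.1 CPM with DMSO. It rose in both lines, on the log2 scale by 0.18 (SE 0.04, adjusted p = 0.0246) in knock-out cells and 0.42 (SE 0.04, adjusted p = 3.16e-05) in parental cells. Hk2 had 339 and 354 CPM in knock-out cells with CHIR99021, against 368 and 362 CPM with DMSO, and 341 and 350 CPM in parental cells with CHIR99021, against 399 and 407 CPM with DMSO. It fell by 0.22 on the log2 scale (SE 0.04, adjusted p = 0.00172) in parental cells. In knock-out cells its log2 fold change was -0.08 (adjusted p = 0.248). The Hk1 call in knock-out cells was lost without any 1 of the 4 knock-out libraries (adjusted p 0.0752 to 0.176).

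Further along upper glycolysis, Gpi1, the isomerase that makes fructose 6-phosphate, and Aldoa, the main aldolase, rose in parental cells. The log2 fold changes in parental cells were 0.25 (SE 0.04, adjusted p = 0.00107) for Gpi1 and 0.17 (SE 0.04, adjusted p = 0.0137) for Aldoa. In knock-out cells they were 0.07 (adjusted p = 0.32) and 0.02 (adjusted p = 0.83). The difference between the 2 responses passed for neither gene, at -0.18 (adjusted p = 0.0917) for Gpi1 and -0.15 (adjusted p = 0.168) for Aldoa. The Aldoa call was lost without parental CHIR99021 replicate 1 or DMSO replicate 1 (adjusted p = 0.0814 and 0.15). The 3 phosphofructokinase genes Pfkl, Pfkm and Pfkp, Aldoc and the triose phosphate isomerase Tpi1 passed in neither line. Aldoc, an aldolase known from brain, had 9.55 and 8.77 CPM in knock-out cells with CHIR99021, against 11.4 and 10.7 CPM with DMSO, and 14.3 and 13.1 CPM in parental cells with CHIR99021, against 11.8 and 10.7 CPM with DMSO.

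Lower glycolysis holds the most abundant transcripts of the set, and 1 of its 7 genes passed in knock-out cells and 2 in parental cells (14.3% and 28.6%, against 7.06% and 19.4% of all genes). Gapdh had 4212 and 4322 CPM in knock-out cells with CHIR99021, 4185 and 3998 CPM in knock-out cells with DMSO, 4198 and 4298 CPM in parental cells with CHIR99021 and 4129 and 4006 CPM in parental cells with DMSO. Its adjusted p was 0.254 to 0.988 over the 5 comparisons. Pkm, which encodes pyruvate kinase, had 2208 and 2259 CPM in knock-out cells with CHIR99021, against 2609 and 2452 CPM with DMSO, and 2355 and 2318 CPM in parental cells with CHIR99021, against 2438 and 2494 CPM with DMSO. It fell by 0.18 on the log2 scale (SE 0.04, adjusted p = 0.0165) in knock-out cells, and its log2 fold change in parental cells was -0.08 (adjusted p = 0.177). The Pkm call was lost without knock-out CHIR99021 replicate 1 or 2 (adjusted p = 0.125 and 0.0761) and without knock-out DMSO replicate 1 (adjusted p = 0.077). Pgk1, Pgam1 and Eno1 passed in neither line.

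The 2 called in parental cells were the less abundant enolases, which moved apart. Eno2, the enolase of neurons, had 9.8 and 6.91 CPM in knock-out cells with CHIR99021, against 4.82 and 6.45 CPM with DMSO, and 9.16 and 8.61 CPM in parental cells with CHIR99021, against 5.62 and 6.31 CPM with DMSO. Its log2 fold change was 0.57 (SE 0.18) in each line, called in parental cells (adjusted p = 0.0445) and not in knock-out cells (adjusted p = 0.0792). Eno3, the enolase of muscle, fell by 0.32 on the log2 scale (SE 0.09, adjusted p = 0.0284) in parental cells. DESeq2 called neither gene (adjusted p = 0.0866 for Eno2 and 0.113 for Eno3), and both calls were lost without any 1 of the 4 parental libraries (adjusted p 0.093 to 0.207 for Eno2 and 0.0563 to 0.166 for Eno3). Of the 8 neural markers, 6 were tested, and Neurog2 was at 0 in every library. With CHIR99021, 2 of the 6 were called lower in knock-out cells and all 6 in parental cells, against 4.18% and 10.3% of all genes. The summed level of the 8 was 97.0 to 99.5 CPM in knock-out cells with CHIR99021, against 112 to 121 CPM with DMSO. In parental cells it was 56.6 to 56.8 CPM with CHIR99021, against 111 to 117 CPM with DMSO. Any link of these markers to Eno2 was not tested.

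At the end of the pathway the 2 lactate dehydrogenase genes differed. Ldha, whose subunit favours lactate, had 988 and 1000 CPM in knock-out cells with CHIR99021, against 1126 and 1078 CPM with DMSO, and 1105 and 1091 CPM in parental cells with CHIR99021, against 1140 and 1152 CPM with DMSO. It fell by 0.15 on the log2 scale (SE 0.03, adjusted p = 0.0272) in knock-out cells, and its log2 fold change in parental cells was -0.06 (adjusted p = 0.256). The Ldha call was lost without 5 libraries in turn, both knock-out CHIR99021 libraries, knock-out DMSO replicate 1 and both parental DMSO libraries (adjusted p 0.0575 to 0.157), and in a fit of the knock-out groups alone (adjusted p = 0.0938). Ldhb, whose subunit favours pyruvate, had 177 and 175 CPM in knock-out cells with CHIR99021, against 158 and 150 CPM with DMSO, and 123 and 123 CPM in parental cells with CHIR99021, against 171 and 174 CPM with DMSO. It rose by 0.19 (SE 0.04, adjusted p = 0.0177) in knock-out cells and fell by 0.48 on the log2 scale (SE 0.04, adjusted p = 8.61e-06) in parental cells. The call on its rise was lost without knock-out CHIR99021 replicate 1 or 2 or knock-out DMSO replicate 2 (adjusted p 0.0608 to 0.121). Slc16a3, the carrier that exports lactate, Pdk3, a paralog of Pdk1, and the bifunctional regulators Pfkfb3 and Pfkfb4 passed in neither line.

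Summed over the 25 glycolytic genes, the level was 13766 and 13832 CPM in knock-out cells with CHIR99021, against 14394 and 13806 CPM with DMSO, and 14794 and 14653 CPM in parental cells with CHIR99021, against 14291 and 14496 CPM with DMSO. Glycolytic transcripts thus took 1.38% to 1.48% of the counts in every library. Summed over the 12 HIF targets, the level was 668 and 660 CPM in knock-out cells with CHIR99021, against 739 and 733 CPM with DMSO, and 691 and 660 CPM in parental cells with CHIR99021, against 751 and 754 CPM with DMSO. The HIF sum was lower with CHIR99021 in both lines without overlap. The glycolytic sum was higher without overlap in parental cells and overlapped in knock-out cells. With reads of near-identical copies added to their genes, a choice made after seeing the data, it was 18018 and 17686 CPM in parental cells with CHIR99021, against 17459 and 17870 CPM with DMSO, and 16648 and 16565 CPM in knock-out cells with CHIR99021, against 17710 and 16827 CPM with DMSO. So summed, the parental groups overlapped and the knock-out groups did not, with CHIR99021 lower. Bnip3l and Mif make up most of the HIF sum.

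The response to CHIR99021 itself differed between the lines for 5 of the 37 genes (13.5%), 1 with a higher and 4 with a lower value in knock-out cells, against 6.13% of all genes tested (3.22% higher and 2.91% lower). The difference, the log2 response of knock-out cells minus that of parental cells, was 0.68 (SE 0.06, adjusted p = 4.15e-05) for Ldhb, which moved in opposite directions. It was -0.30 (SE 0.05, adjusted p = 0.00316) for Slc2a3 and -0.24 (SE 0.06, adjusted p = 0.0355) for Hk1, both of which rose more in parental cells. It was -0.53 (SE 0.08, adjusted p = 0.00166) for Ak4, a mitochondrial adenylate kinase, and -0.55 (SE 0.13, adjusted p = 0.0332) for Aldoc. Ak4 had 32.2 and 34.2 CPM in knock-out cells with CHIR99021, against 38 and 38.1 CPM with DMSO, and 48.5 and 46.7 CPM in parental cells with CHIR99021, against 37.4 and 38 CPM with DMSO. It rose by 0.34 (SE 0.05, adjusted p = 0.0012) in parental cells, while its log2 fold change of -0.20 in knock-out cells did not pass (adjusted p = 0.0553). Aldoc had log2 fold changes of -0.27 (SE 0.10, adjusted p = 0.12) in knock-out cells and 0.29 (SE 0.09, adjusted p = 0.054) in parental cells, so the difference passed where neither response did. Those of Ldhb, Slc2a3 and Ak4 held in each of 15 alternatives. DESeq2 did not call Hk1 (adjusted p = 0.12) or Aldoc (adjusted p = 0.212), and leaving out single libraries ended the Hk1 call for each of the 8 (adjusted p 0.0511 to 0.171) and the Aldoc call for 6 of the 8, those other than knock-out DMSO replicate 2 and parental CHIR99021 replicate 2 (adjusted p 0.0506 to 0.143).

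**Figure D3:**
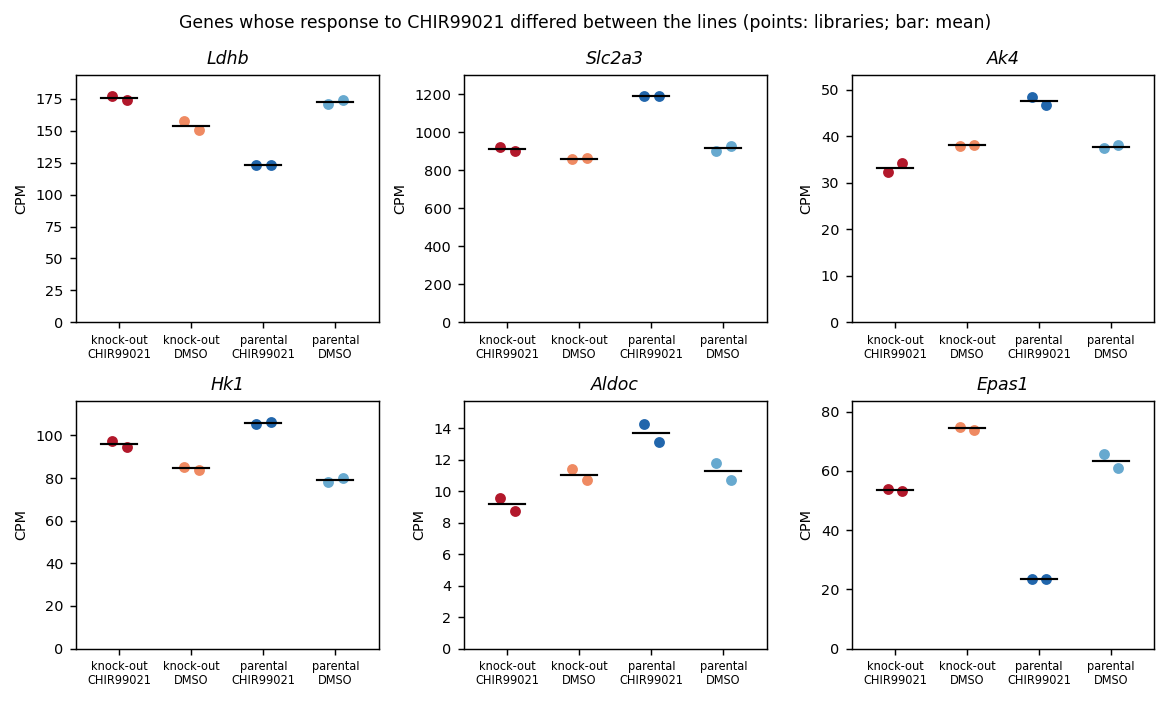
CPM (y axis) in each library of the 5 genes whose response differed between the lines, Ldhb, Slc2a3, Ak4, Hk1 and Aldoc, and of Epas1, which encodes a HIF α subunit; points are libraries and bars group means, in the order knock-out with CHIR99021, knock-out with DMSO, parental with CHIR99021 and parental with DMSO. The parental libraries with CHIR99021 lie above all others for Slc2a3, Ak4, Hk1 and Aldoc and below all others for Ldhb and Epas1.

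With DMSO alone, the knock-out differed from parental cells for 5 of the 37 genes, 1 higher and 4 lower, against 6.75% of all genes tested (3.13% higher and 3.62% lower), and each difference was small. Ddit4 was higher, at 0.29 on the log2 scale (SE 0.07, adjusted p = 0.0406). Hk2 had a log2 change of -0.14 (SE 0.04, adjusted p = 0.0468), Pfkp of -0.17 (SE 0.04, adjusted p = 0.0311), Tpi1 of -0.20 (SE 0.04, adjusted p = 0.0145) and Ldhb of -0.16 (SE 0.04, adjusted p = 0.0346). Pfkp, the phosphofructokinase isoform first described in platelets, had 173 and 170 CPM in knock-out cells with CHIR99021 and 155 and 161 CPM in knock-out cells with DMSO, against 188 and 183 CPM in parental cells with CHIR99021 and 176 and 180 CPM in parental cells with DMSO. The span of Pfkp, introns included, overlaps that of Pitrm1 on the opposite strand. With no strand setting stated for the counting, the 2 genes may share reads if their exons overlap, which was not tested. None of the 5 calls held in every alternative. In a fit of the DMSO groups alone 1 of them was left, against 5.1% of all genes called there. DESeq2 on all libraries made 4, against 4.48% of all genes. When either parental DMSO library was left out, fewer of the 37 genes passed by edgeR and the share of all genes called fell as well.

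With CHIR99021 the lines stood further apart: 15 of the 37 genes passed, 4 higher and 11 lower in knock-out cells, against 23.7% of all genes tested (11.2% higher and 12.5% lower). Of the 25 glycolytic genes, 9 were lower and 1, Ldhb, was higher. The log2 difference was -0.38 (SE 0.03, adjusted p = 1.25e-05) for Slc2a3, -0.58 (SE 0.09, adjusted p = 0.00113) for Aldoc and -0.29 (SE 0.04, adjusted p = 0.000454) for Tpi1. Tpi1 had 231 and 247 CPM in knock-out cells with CHIR99021, against 293 and 290 CPM in parental cells with CHIR99021. Aldoa (-0.24), Gpi1 (-0.21), Hk1 (-0.14), Ldha (-0.14), Pgam1 (-0.11), the phosphoglycerate mutase, and Slc16a3 (-0.30) made up the rest of the lower glycolytic genes. Ldhb was higher by 0.51 (SE 0.04, adjusted p = 5.57e-06). The comparison shares its libraries with the responses above, and these values are not separate evidence for them. The calls on Hk1, Ldha, Pgam1 and Slc16a3 were each lost without either knock-out CHIR99021 library and without parental CHIR99021 replicate 1 (adjusted p 0.0525 to 0.25), and those on Hk1 and Pgam1 also without its replicate 2 (adjusted p = 0.112 and 0.124). Calls that held in each of 16 alternatives were those of Slc2a3, Gpi1, Aldoa, Aldoc, Tpi1, Ldhb, P4ha1 and Ak4. Fewer of the 37 genes passed whichever CHIR99021 library was left out, and the share of all genes called fell as well.

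Among the 12 HIF targets in CHIR99021, Ndrg1, Ddit4 and P4ha1 were higher and Ak4 and Ankrd37 lower in knock-out cells. The log2 fold change was 0.66 (SE 0.19, adjusted p = 0.0302) for Ndrg1, 0.23 (SE 0.07, adjusted p = 0.0341) for Ddit4 and 0.34 (SE 0.07, adjusted p = 0.00418) for P4ha1. It was -0.52 (SE 0.05, adjusted p = 4.97e-05) for Ak4. Ankrd37, an ankyrin repeat gene induced by HIF, had the lowest mean over the 8 libraries of the 37 genes, with 1.99 and 1.58 CPM in knock-out cells with CHIR99021 and 2.43 and 2.52 CPM in knock-out cells with DMSO, against 3.1 and 2.59 CPM in parental cells with CHIR99021 and 3.01 and 2.57 CPM in parental cells with DMSO. Its log2 fold change in CHIR99021 was -0.67 (SE 0.21, adjusted p = 0.0365). The span of Ankrd37, introns included, overlaps that of Ufsp2 on the opposite strand, which had 4062 counts over the 8 libraries against 505 for Ankrd37. The 2 genes may share reads if their exons overlap, which was not tested. DESeq2 did not call Ndrg1 (adjusted p = 0.125), Ddit4 (adjusted p = 0.107) or Ankrd37 (adjusted p = 0.203), and each of these calls was lost without knock-out CHIR99021 replicate 2 (adjusted p = 0.209, 0.138 and 0.217 in that order). Without parental CHIR99021 replicate 1 the calls on Ndrg1 and Ankrd37 were lost (adjusted p = 0.186 and 0.197), and without its replicate 2 that on Ddit4 (adjusted p = 0.214).

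Over all comparisons 52 calls fell on 26 of the 37 genes, and 11 genes passed nowhere: Pfkl, Pfkm, Gapdh, Pgk1, Eno1, Pfkfb3, Pfkfb4, Pdk3, Vegfa, Egln1 and P4ha2. Levels of paralogs can be compared per kilobase of exon, and on that scale the makeup of several isozyme pairs shifted with CHIR99021. Slc2a3 held 62.1% of the summed CPM per kilobase of the 2 glucose carriers in knock-out cells with CHIR99021, against 55.2% with DMSO, and 69.0% in parental cells with CHIR99021, against 58.7% with DMSO. Hk1 held 16.2% of the hexokinase sum in knock-out cells with CHIR99021, against 13.9% with DMSO, and 17.7% in parental cells with CHIR99021, against 12.1% with DMSO. For both, the share was higher with CHIR99021 in each line. Ldhb held 27.2% of the lactate dehydrogenase sum in knock-out cells with CHIR99021, against 22.8% with DMSO, and 19.1% in parental cells with CHIR99021, against 24.1% with DMSO. Pdk3 held 41.6% of the sum with Pdk1 in knock-out cells with CHIR99021, against 38.6% with DMSO, and 42.8% in parental cells with CHIR99021, against 37.5% with DMSO. Aldoa held 99.1% to 99.3% of the aldolase sum in every group, and Bnip3l 93.0% to 95.1% of the sum with Bnip3. These shares rest on annotated exon lengths, which need not be the transcripts these cells use, and were not tested.

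**Figure D4:**
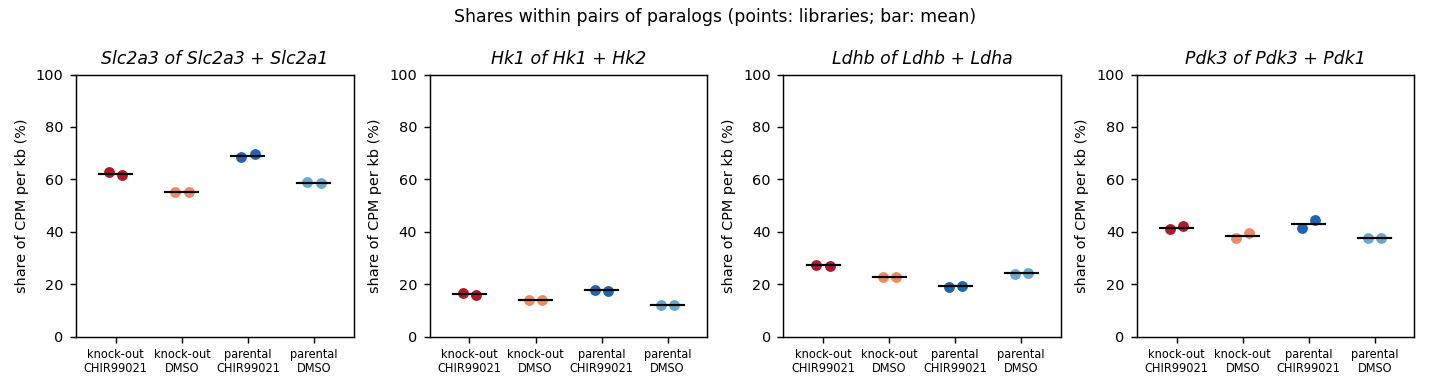
Share in percent (y axis) of the summed CPM per kilobase of a paralog family held by Slc2a3 (of Slc2a1 and Slc2a3), Hk1 (of Hk1 and Hk2), Ldhb (of Ldha and Ldhb) and Pdk3 (of Pdk1 and Pdk3) in each library, with bars at group means. CHIR99021 libraries lie above DMSO libraries in both lines for Slc2a3, Hk1 and Pdk3, and for Ldhb in knock-out cells alone.

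Estimates for 3 of the most abundant genes depend on how reads were split between near-identical copies, here other annotated genes with at least 95% identity over at least 300 bases of transcript. Eno1 has 3 such copies that held 76.1% of the counts of the gene and its copies together, nearly all in Eno1b, which had 410384 counts over the 8 libraries against 138348 for Eno1. Pgk1 has 2 copies with 37.9%, and Gapdh has 74, of which 72 had counts, with 13.6%. Pgk1 alone had 405 and 366 CPM in knock-out cells with CHIR99021, 396 and 360 CPM in knock-out cells with DMSO, 488 and 433 CPM in parental cells with CHIR99021 and 364 and 477 CPM in parental cells with DMSO, and it passed no test. With its copies added, a choice made after the data were seen, it had 618 and 625 CPM in knock-out cells with CHIR99021, 626 and 624 CPM in knock-out cells with DMSO, 724 and 707 CPM in parental cells with CHIR99021 and 685 and 695 CPM in parental cells with DMSO. The summed level was lower in the knock-out with CHIR99021 (log2 fold change -0.20, SE 0.03, adjusted p = 0.00108) and with DMSO (-0.14, SE 0.03, adjusted p = 0.0274). Eno1 and Gapdh passed no test with or without their copies.

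**Figure D5:**
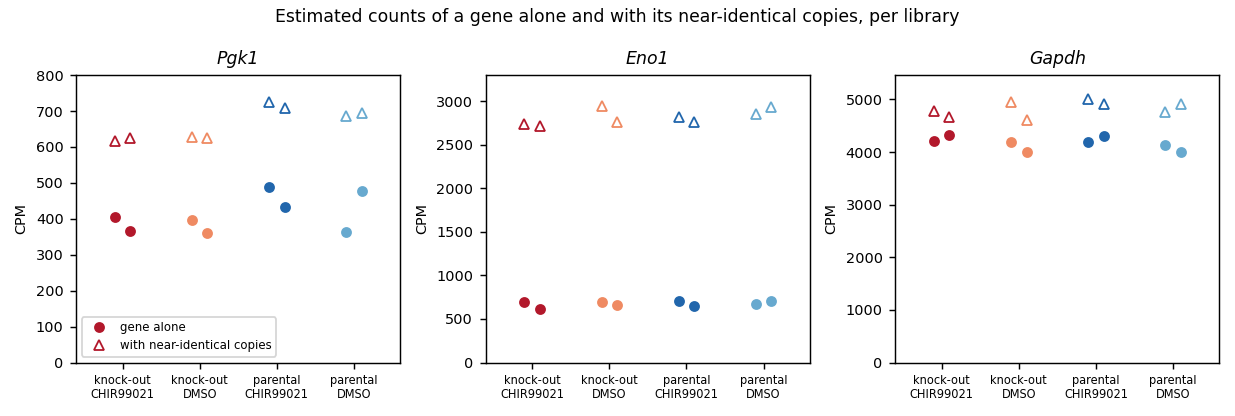
CPM (y axis) of Pgk1, Eno1 and Gapdh in each library, for the gene alone (circles) and with its near-identical copies added (open triangles), by group. For Pgk1 the libraries of a group lie closer together with the copies added, and the parental groups then lie above the knock-out groups.

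Among the genes that control HIF, Epas1, which encodes HIF-2α, had the strongest response. It had 53.9 and 53.2 CPM in knock-out cells with CHIR99021, against 74.9 and 73.9 CPM with DMSO, and 23.6 and 23.6 CPM in parental cells with CHIR99021, against 65.7 and 61 CPM with DMSO. It fell by 0.48 (SE 0.05, adjusted p = 0.000545) in knock-out cells and by 1.43 (SE 0.05, adjusted p = 2.7e-08) in parental cells on the log2 scale, and the 2 responses differed by 0.95 (SE 0.07, adjusted p = 2.41e-05). Hif1a, which encodes HIF-1α, had log2 fold changes of 0.17 (adjusted p = 0.103) in knock-out cells and -0.06 (adjusted p = 0.569) in parental cells. Its partner Arnt had 0.05 (adjusted p = 0.573) and -0.01 (adjusted p = 0.89). Vhl, which targets HIF for destruction, had -0.08 (adjusted p = 0.662) in knock-out cells and -0.30 (SE 0.09, adjusted p = 0.042) in parental cells. Of 15 genes listed for oxygen sensing and HIF subunits, 13 were tested, and 1 passed in knock-out cells, lower, and 5 in parental cells, 1 higher and 4 lower (7.69% and 38.5%, against 7.06% and 19.4% of all genes). DESeq2 called 1 of the 13 in knock-out cells and 2 in parental cells. HIF protein, which hydroxylation controls, was not measured.

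A list of 8 genes held the Myc family, its partners and related factors, and also Txnip, which is none of these. Of the 8 genes, 0 were higher and 4 lower in knock-out cells, and 2 higher and 5 lower in parental cells. These are 50% and 87.5%, against 7.06% and 19.4% of all genes. Myc and Mycn, transcription factors that also drive glycolytic genes, fell in both lines. Mycl rose by 0.75 on the log2 scale (SE 0.10, adjusted p = 0.000375) in parental cells, and its log2 fold change in knock-out cells was -0.39 (adjusted p = 0.0628). Myc had 41.3 and 43.1 CPM in knock-out cells with CHIR99021, against 88.5 and 76.8 CPM with DMSO, and 47.8 and 51 CPM in parental cells with CHIR99021, against 63.2 and 64.8 CPM with DMSO. Mycn had 38.9 and 36.6 CPM in knock-out cells with CHIR99021, against 75.3 and 72.8 CPM with DMSO, and 31 and 30.9 CPM in parental cells with CHIR99021, against 84 and 78 CPM with DMSO. The log2 fold change of Myc was -0.97 (SE 0.07, adjusted p = 9.01e-05) in knock-out cells and -0.37 (SE 0.07, adjusted p = 0.0028) in parental cells, and that of Mycn -0.97 (SE 0.05, adjusted p = 1.92e-05) and -1.39 (SE 0.06, adjusted p = 3.96e-08). The responses of both genes differed between the lines, in opposite directions, by -0.60 for Myc (adjusted p = 0.00356) and 0.42 for Mycn (adjusted p = 0.00926).

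Further genes that HIF is known to activate were also called. Of 36 symbols listed for such genes 33 were tested, and 2 were higher and 4 lower in knock-out cells, and 3 higher and 11 lower in parental cells (18.2% and 42.4%, against 7.06% and 19.4% of all genes). Cited2, lower in parental cells, is in this list and in that for oxygen sensing and HIF subunits, and is counted in both. DESeq2 called 5 of the 33 in knock-out cells and 6 in parental cells. Loxl2, an enzyme that cross-links collagen, had 36.9 and 31.4 CPM in knock-out cells with CHIR99021, against 33.7 and 34.6 CPM with DMSO, and 16.7 and 16.8 CPM in parental cells with CHIR99021, against 32.9 and 36.2 CPM with DMSO. It fell by 1.05 on the log2 scale (SE 0.09, adjusted p = 7.71e-06) in parental cells, and the responses differed by 1.05 (SE 0.12, adjusted p = 0.000303). Of 29 further genes of glycolysis and pyruvate use that were tested, 1 passed in knock-out cells, lower, and 5 in parental cells, 3 higher and 2 lower (3.45% and 17.2%, against 7.06% and 19.4% of all genes). DESeq2 called 0 of the 29 in knock-out cells, where 6 had an unadjusted p under 0.05 by edgeR, and 4 in parental cells. Gpd1l, a glycerol 3-phosphate dehydrogenase-like enzyme, was the 1 that passed in knock-out cells (log2 fold change -0.29, SE 0.06, adjusted p = 0.0208, and 0.0533 by DESeq2), and it was also lower in parental cells (-0.43, SE 0.06, adjusted p = 0.000582).

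Of 7 genes of the serine branch, 5 were lower in knock-out than in parental cells with CHIR99021, where 12.5% of all genes were lower, among them Psat1, which makes phosphoserine (log2 fold change -0.21, SE 0.04, adjusted p = 0.00135), and Mthfd2 of mitochondrial folate metabolism (-0.23, SE 0.04, adjusted p = 0.00113). Both were also lower with DMSO (Psat1 -0.22, adjusted p = 0.00416, and Mthfd2 -0.20, adjusted p = 0.0109). Of 20 genes of the tricarboxylic acid cycle, 1 was higher and 7 lower in that comparison, against 11.2% and 12.5% of all genes. The response of knock-out cells to CHIR99021 gave 0 calls by edgeR and by DESeq2 among the 20 cycle genes (4 at an unadjusted p under 0.05), and in parental cells 4 were higher and 1 lower (25%, against 19.4% of all genes). Of 9 genes of the pentose phosphate pathway, 2 were higher and 1 lower in knock-out than in parental cells with CHIR99021 (33.3%, against 23.7% of all genes). DESeq2 called 4 serine branch genes, 8 cycle genes and 2 pentose phosphate genes in that comparison.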

How the data were processed

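The authors deposited 1 table of expected counts (estimated reads) for Ensembl genes. It was made with kallisto and genome build GRCm38.p4, per the submitters' processing notes. The version, the transcript set and the strand setting are not given in the sources used here. Libraries were made from polyadenylated RNA with a stranded kit, per the labels' protocols. The table holds 48440 genes in 8 libraries with no normalisation, and 36.9% to 38.4% of a library's values were not whole.

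Estimated counts were rounded. Genes were kept with filterByExpr (minimum count 10, minimum total 15). The 17739 genes left hold 99.905% to 99.918% of each library's counts. edgeR 4.0.16 scaled library sizes by the trimmed mean of M values (0.9857 to 1.0181) and fitted all 8 libraries in 1 quasi-likelihood model of 4 group means, with 4 residual degrees of freedom and a common biological coefficient of variation of 0.0532. The 2-sided F tests covered CHIR99021 against DMSO in each line, knock-out against parental cells in each treatment, and the difference between the 2 responses. Alternatives, including DESeq2 1.42.0 and limma-voom 3.58.1, are described at the end. The chi-square per degree of freedom between the 2 libraries of a group, over genes, was 3.23 to 4.75, so they did not hold the same values. How reads were split between near-identical copies can raise that value, so it cannot exclude technical repeats. Libraries of different groups were not compared in this way. The procedure was tested on simulated data with larger changes than most of those called here, so that test does not bear on the smaller ones.

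The 37 genes and all lists were chosen with earlier results of these data known, so nothing here is independent of those results. Values of every library are given for genes called with an absolute log2 fold change of at least 0.5 and for a list of 13 genes whatever their values. Hk1 and Bnip3l were added after their values were seen, and Loxl2 and other genes outside the 37 come from up to 4 called genes per list with the smallest adjusted p. Gene positions are from GENCODE M21 and exon lengths are of merged exons. Near-identical copies were found with BLAST 2.17.0. Of the 37 genes 10 overlap another tested gene by gene span, introns included, 8 of them on the opposite strand.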

Additional observations from a re-analysis of the deposited data

Results flagged for a closer look

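A difference between the lines in the response to CHIR99021 was tested with edgeR as the log2 response of knock-out cells minus that of parental cells. It was looked up for the 37 genes and for Hif1a, Epas1, Arnt, Vhl, Myc and Mycn. The difference passed for 8 of them, against 6.13% of all genes tested. Ldhb differed by 0.68 (adjusted p = 4.15e-05), with 2 of 2 knock-out libraries higher and 2 of 2 parental libraries lower with CHIR99021. Slc2a3 differed by -0.30 (adjusted p = 0.00316) and Hk1 by -0.24 (adjusted p = 0.0355). Ak4 differed by -0.53 (adjusted p = 0.00166) and Aldoc by -0.55 (adjusted p = 0.0332), each lower in 2 of 2 knock-out libraries and higher in 2 of 2 parental libraries with CHIR99021. Outside the 37 genes, Epas1 differed by 0.95 (adjusted p = 2.41e-05), Myc by -0.60 (adjusted p = 0.00356) and Mycn by 0.42 (adjusted p = 0.00926), all 3 lower with CHIR99021 in both lines. Other genes of the lists in the report passed too, and not all are named here. Among them were Loxl2 (1.05), Pgm2 (0.53), Txnip (0.41) and Cited2 (0.33) with a positive difference, and Mycl (-1.15) and Jmjd6 (-0.31) with a negative one. DESeq2 did not call the differences of Cited2 (adjusted p = 0.121) and Jmjd6 (adjusted p = 0.0892).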

How the results depend on the processing

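Each count of called genes among the 37 was recomputed under 16 alternatives (15 for the difference between responses): relative log expression size factors, DESeq2, limma-voom, no filter on low counts, a stricter filter, the compared groups alone, a replicate block, 8 fits that leave out 1 library each, and near-identical copies added, the last chosen after seeing the data. No call changed sign. Of 52 calls 21 held throughout: 1 of 10 for knock-out cells with CHIR99021 against DMSO, 9 of 17 for parental cells with CHIR99021 against DMSO, 0 of 5 for knock-out against parental cells with DMSO, 8 of 15 with CHIR99021, and 3 of 5 for the difference between responses. Leaving out 1 library moved these counts to 1 to 12, 11 to 17, 0 to 3, 8 to 16 and 3 to 6 in the same order, with the assumption that a group's remaining library varies like those of other groups. The count of 10 for knock-out cells became 17 with no filter, against 6.97% of all genes called there. That of 5 with DMSO became 1 with the compared groups alone (5.1% of all genes), and that of 5 for the difference became 3 under DESeq2 (4.19% of all genes). The cause was not tested.

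Replicate numbers are shared between groups by the labels, but deviations of same-numbered libraries had correlations of -0.056 to 0.104, positive in 2 of 6 pairs of groups, so the numbers were not taken as pairs. With the replicate block the counts were 10, 17, 4, 16 and 5. The fit has 2 libraries a group and 4 residual degrees of freedom, and 31 of the 52 calls were lost in at least 1 alternative. The weakly expressed genes Ankrd37, Ndrg1, Bnip3 and Egln3 had standard errors of 0.13 to 0.29 on the log2 scale.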

Other observations

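The share of the Pgk1 family read as Pgk1 varied between libraries of a group. In parental cells with DMSO, Pgk1 had 364 and 477 CPM in replicates 1 and 2, while its copy Pgk1-rs7 on chromosome 12 had 195 and 122 CPM, and the sum with both copies was 685 and 695 CPM. Gm10359, a near-identical copy of Gapdh on chromosome 5, had 201 and 106 CPM in knock-out cells with CHIR99021, against 312 and 226 CPM with DMSO, and 316 and 216 CPM in parental cells with CHIR99021, against 218 and 355 CPM with DMSO. Txnip, which restrains glucose uptake, had 190 and 197 CPM in knock-out cells with CHIR99021, against 176 and 185 CPM with DMSO, and 150 and 150 CPM in parental cells with CHIR99021, against 188 and 185 CPM with DMSO. Its response differed between the lines by 0.41 on the log2 scale (SE 0.06, adjusted p = 0.00137, edgeR). Pgm2, a sugar phosphate mutase, had 28.2 and 27.7 CPM in knock-out cells with CHIR99021, against 22.9 and 23.9 CPM with DMSO, and 19.8 and 19.7 CPM in parental cells with CHIR99021, against 23.3 and 24.4 CPM with DMSO. It was called by edgeR in opposite directions in the 2 lines, with log2 fold changes of 0.26 (SE 0.06, adjusted p = 0.0279) in knock-out cells and -0.27 (SE 0.06, adjusted p = 0.0113) in parental cells. DESeq2 called neither response (adjusted p = 0.155 in knock-out cells and 0.116 in parental cells).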
